A study of Mus musculus with 16 samples.

Results

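The genes of insulin signaling and glucose transport described here are Insr, Grb14, Irs1, Irs2, Pik3r1, Akt2, Foxo1, Tbc1d4, Slc2a4 and Slc2a1, 10 of the 35552 gene symbols in the expression table. Their rows were found by matching the RefSeq transcript identifier of each row to a symbol, which gave 46 of 130343 rows. Counts above 0 were present on 28 of the 46 rows, and 16 rows of 8 genes had enough counts to be tested. Levels were measured by poly(A) RNA-seq in inguinal subcutaneous adipose tissue (SAT) and mesenteric visceral adipose tissue (VAT) of male wild-type C57BL/6J mice. The 4 obese mice had eaten a high-fat diet with 0.2% cholesterol in which 42% of the kcal came from fat, and the 4 lean mice had eaten a normal laboratory diet. Both diets began at 10 weeks of age and lasted 12 to 14 months. Each mouse gave 1 VAT library and 1 SAT library that pooled its 2 inguinal pads, so that 16 libraries formed 4 groups of 4. Vessels large enough to see had been trimmed off.

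Insulin binds its receptor, a tyrosine kinase encoded by Insr, which phosphorylates the docking proteins IRS1 and IRS2. These recruit PI3-kinase through its regulatory subunit, encoded by Pik3r1, and the lipid it makes activates the kinase AKT2. In adipocytes AKT2 inactivates TBC1D4, a brake on the vesicles that carry the glucose transporter GLUT4 (Slc2a4) to the cell surface, and keeps the transcription factor FOXO1 out of the nucleus.

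Among these genes the docking protein Irs1 was downregulated in both tissues of obese mice, 3.29-fold in SAT and 2.89-fold in VAT. Irs2 was upregulated 1.80-fold in obese SAT. Its VAT libraries overlapped between diets, and its change there did not pass the test. The leading row of Pik3r1 was downregulated 1.98-fold in obese VAT with no call in SAT. This difference between the tissues was itself called in a fit that paired the tissues of each mouse, though not without that pairing. Slc2a4 was lower in obese VAT at very low counts, and that call depended on the processing and on which mice were included.

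Irs1 lies on chromosome 1 (82210822 to 82269338, minus strand) and Irs2 on chromosome 8 (11034681 to 11059499, minus strand) of GRCm39 in the GENCODE vM39 annotation. The 250 bases before the RefSeq start of each gene were searched for CAAAACA, a form of the insulin response sequence that FOXO factors bind, and for the E-box CACGTG, both on both strands. Both motifs and these windows were chosen after the expression values were known, and the windows are shown because Irs1 and Irs2 responded to the diet and both hold both motifs. The sequence is from the RefSeq table of GRCm38.p6 and was matched once to GRCm39. The windows are written 5′ to 3′ on the minus strand, with the motif letters in capitals. CAAAACA appears as its reverse complement TGTTTTG, and in the first Irs1 window its first 2 letters are the last of the E-box.
Irs1, chr1:82269255-82269284: aggctccgtCACGTGTTTTGctcctctgga
Irs1, chr1:82269174-82269203: cagccgccgctTGTTTTGgttggggctctc
Irs2, chr8:11058952-11058981: cgcagagtCACGTGtTGTTTTGctcttagt

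CAAAACA was present in 5.56% of 32851 RefSeq promoters of the same length, CACGTG in 6.02% and both in 0.295%. In GENCODE vM39 the 3 windows fall within an exon and untranslated region, 54 and 135 bases (Irs1) and 518 bases (Irs2) past the gene's annotated start. A match describes letters only, and the binding of a factor was not measured.

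Total counts were between 1256082 and 16614407 per library, and 1 count equaled between 0.0602 and 0.796 CPM (counts scaled to the library total, per 1e6 counts). The shallowest libraries were replicate 1 of lean VAT and replicate 1 of obese VAT. CPM below were scaled with TMM factors and are given in the order of replicates 1 to 4, and replicate numbers 1 to 4 name the same mouse in SAT and VAT. Differences are from the quasi-likelihood test of edgeR, fitted to 13288 rows. A row is called where its p, adjusted over all of them by the Benjamini-Hochberg method, is below 0.05. In whole tissue, fewer cells of a type and less RNA per cell cannot be told apart. The summed CPM of 8 adipocyte markers was between 31128 and 44053 in lean SAT, 23830 and 38265 in obese SAT, 18079 and 30832 in lean VAT, and 10628 and 22143 in obese VAT. Most of this sum was Fabp4 and Adipoq, with means of 28791 and 5766 CPM in lean SAT. Plin1 (113 against 105 CPM), Cidec (93.0 against 87.3 CPM) and Pparg (4.67 against 3.71 CPM) averaged higher in obese than in lean SAT. None of the 8 was at 0 in all libraries of a group, and 1 fell in obese SAT and 4 in obese VAT. The summed CPM of 8 macrophage markers was between 761 and 1042 in lean SAT, 1327 and 1762 in obese SAT, 1277 and 1505 in lean VAT, and 2599 and 3381 in obese VAT. Of the 7 macrophage markers tested, 4 rose in obese SAT and 6 in obese VAT. Of 5 B and T cell markers tested, 2 rose in obese VAT and 0 in obese SAT. Of 2 brown and beige adipocyte markers tested, 1 rose and 1 fell in each tissue. Of 3 exocrine pancreas markers 1 rose in each tissue, and of 4 skeletal muscle markers 1 fell in obese SAT. The part of cell composition in the results was not tested. The 10 markers of skeletal muscle, a tissue that also uses GLUT4, summed to between 3.77 and 14.5 CPM across all libraries, with 1 to 3 of the 10 at 0 in every library of a group.

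The table gives each RefSeq transcript its own row, and how reads that fit several transcripts were counted is not given in the sources used here. Irs1, Irs2 and Foxo1 have 1 row each, whereas Insr has 4, Pik3r1 has 4, Slc2a4 has 5, Akt2 has 11 and Tbc1d4 has 15. Low counts of a gene with several rows are therefore not read as low expression. Insr had 4 counts in all 16 libraries together, 1 in lean SAT replicate 3 and 1 each in obese SAT replicates 2, 3 and 4. It was at 0 in all 8 VAT libraries, where a count of 0 allows between 0.179 and 1.91 TMM-scaled CPM in lean libraries (3 counts, counting error only). Grb14, an adaptor that inhibits the insulin receptor, had 3 counts, 1 in lean SAT replicate 3 and 2 in lean SAT replicate 4. Rows that matched no symbol could hold further transcripts of a member and were not counted. No diet response could be tested for either gene.

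The diet comparison in each tissue asked which genes responded to the long high-fat diet. By the row with the most counts, 2 of the 8 tested members were called in SAT, where 11.0% of all tested rows were called (6.21% higher and 4.84% lower in obese mice). In VAT 3 of 8 were called, where 10.9% of all tested rows were called and 4.08% were lower. The median log2 fold change of the 8 rows was 0.22 in SAT and -0.44 in VAT, beside 0.0071 and 0.018 over all rows tested. Lean and obese libraries did not overlap for 17.2% of tested rows in SAT and 13.4% in VAT, the background for each statement on overlap below. Both docking protein genes were called in SAT, in opposite directions. The 3 members called in VAT, Irs1, Pik3r1 and Slc2a4, were all lower in obese mice.

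Irs1, the docking protein through which much of the insulin signal passes in adipocytes, had 250, 342, 348 and 262 CPM in lean SAT and 91.2, 80.5, 110 and 83.0 CPM in obese SAT. In VAT the values were 208, 201, 229 and 147 CPM in lean mice and 68.0, 64.2, 85.8 and 52.8 CPM in obese mice. Every obese library lay below every lean library of the same tissue, and the highest obese SAT library was also below the lowest lean VAT library. The log2 fold change of Irs1 was -1.72 ± 0.16 (SE) in SAT, with an edgeR adjusted p of 4.80e-07. In VAT it was -1.53 ± 0.17, with an edgeR adjusted p of 2.12e-06. Irs1 was called in each tissue under all 18 alternative ways of processing or leaving out libraries, with values between -1.82 and -1.64 in SAT and between -1.70 and -1.43 in VAT. A log2 fold change beyond 1.5 together with an adjusted p below 0.05 was reached by 2.75% of tested rows in SAT and 3.17% in VAT, Irs1 among them in both. Its response did not pass the test of a difference between the tissues (VAT minus SAT 0.18 ± 0.16, edgeR adjusted p of 0.659).

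Irs2, the other main docking protein of metabolic tissues, moved the opposite way in SAT. Its levels were 200, 155, 164 and 133 CPM in lean SAT and 274, 349, 259 and 296 CPM in obese SAT, with no overlap between the groups. In VAT they were 201, 153, 147 and 142 CPM in lean mice and 212, 231, 230 and 153 CPM in obese mice. There obese replicate 4 lay among the lean libraries, and the other obese libraries lay above all of them. The log2 fold change was 0.85 ± 0.15 in SAT (edgeR adjusted p of 0.000639), called under all 18 alternatives. In VAT it was 0.37 ± 0.15 (edgeR adjusted p of 0.127), and it was called only when lean replicate 1 was left out (0.46, adjusted p of 0.0363). The SAT and VAT responses of Irs2 were not shown to differ (VAT minus SAT -0.50 ± 0.17, edgeR adjusted p of 0.125).

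**Figure D1:**
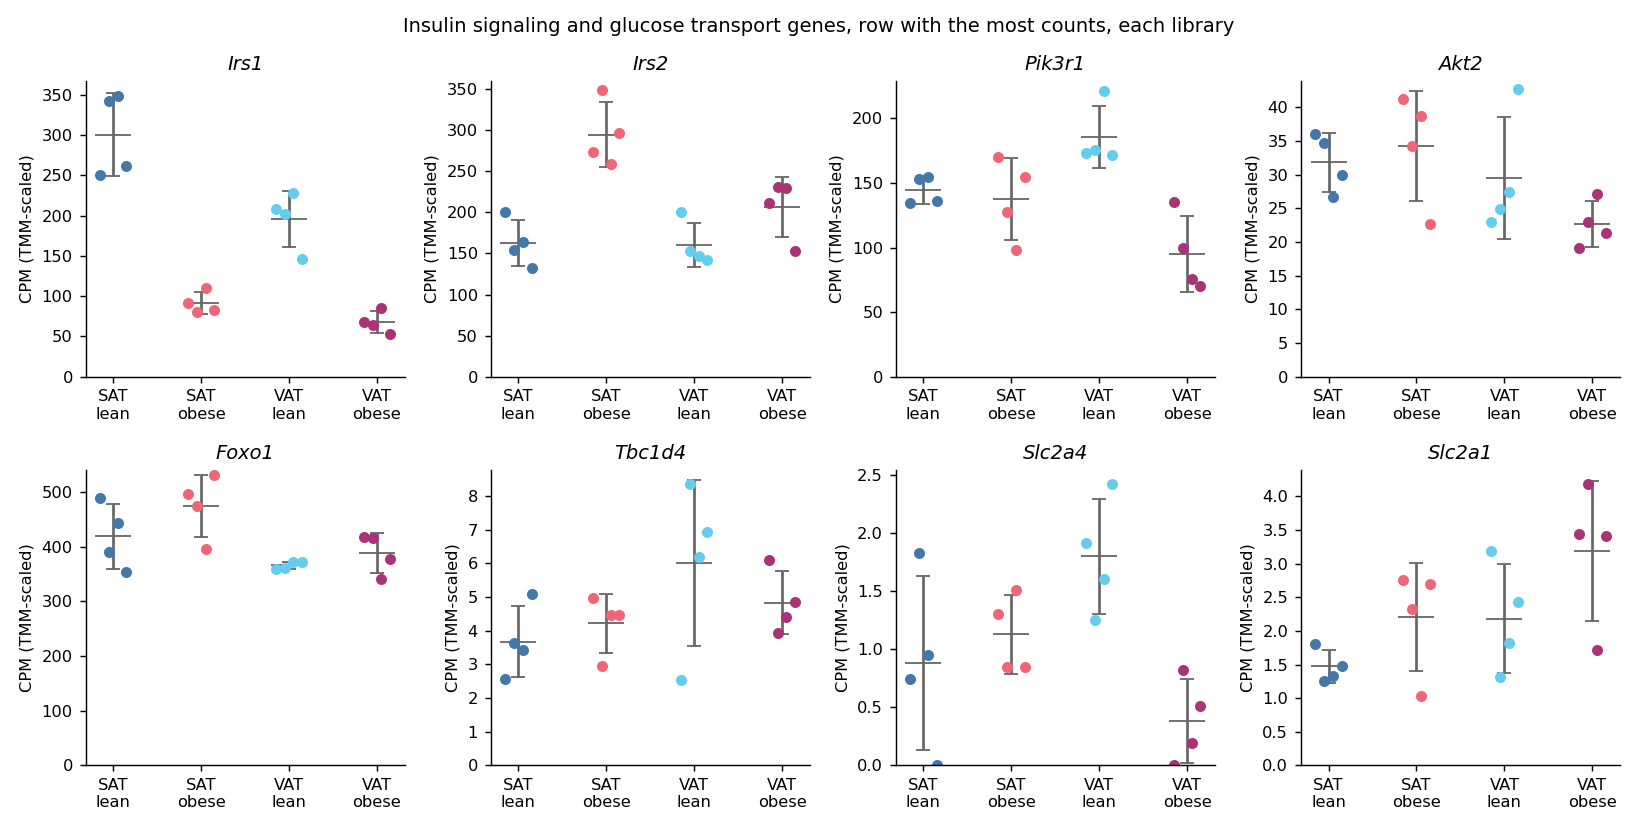
TMM-scaled CPM of the row with the most counts for 8 genes, with 1 point per library, the mean as a horizontal line and the SD as bars, by tissue and diet. Irs1 is lower in all obese libraries of both tissues, Irs2 is higher in all obese SAT libraries, and Pik3r1 is lower in all obese VAT libraries, while Foxo1 overlaps between the diets.

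The balance of counts between the docking proteins followed these changes. Irs1 had 1.25, 2.21, 2.12 and 1.97 counts per Irs2 count in lean SAT and 0.334, 0.231, 0.426 and 0.280 in obese SAT. In VAT the ratio was 1.03, 1.32, 1.55 and 1.03 in lean mice and 0.321, 0.278, 0.373 and 0.345 in obese mice. The counts were not corrected for transcript length, so that only the change of the ratio between groups can be read, not its level against 1. In SAT its mean ± SD was 1.89 ± 0.44 in the 4 lean and 0.318 ± 0.084 in the 4 obese mice, and in VAT it was 1.23 ± 0.25 and 0.329 ± 0.040. Lean and obese libraries did not overlap in either tissue, and this ratio describes the same counts with no test of its own.

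**Figure D2:**
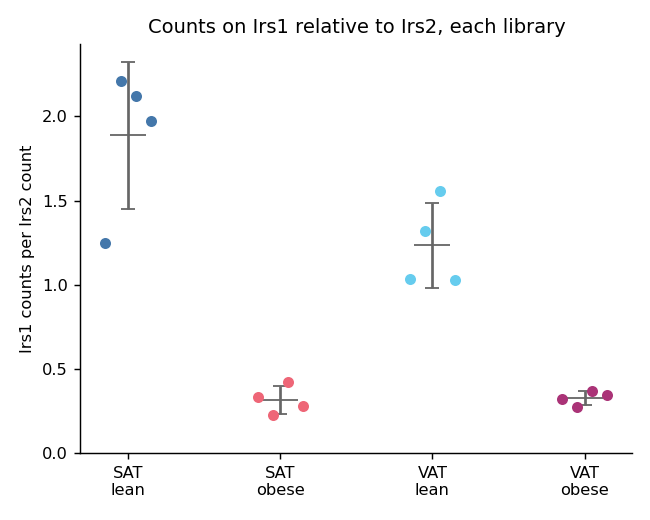
Counts on Irs1 divided by counts on Irs2 in each library, with the mean as a horizontal line and the SD as bars. All 8 lean libraries lie between 1.03 and 2.21, and all 8 obese libraries lie between 0.231 and 0.426.

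Pik3r1 (chromosome 13, 101817071 to 101904725, minus strand) encodes several regulatory subunits of PI3-kinase from alternative transcripts, and 4 rows were tested. Row NM_001077495 held 87.1% of its counts. Its levels were 134, 153, 154 and 136 CPM in lean SAT and 170, 128, 98.4 and 154 CPM in obese SAT. In lean VAT they were 173, 175, 221 and 171 CPM, and in obese VAT 135, 99.3, 75.2 and 70.2 CPM. The SAT groups overlapped, with obese libraries on both sides of the lean ones, whereas all obese VAT libraries lay below all lean VAT libraries. The log2 fold change was -0.07 ± 0.18 in SAT (edgeR adjusted p of 0.855) and -0.98 ± 0.18 in VAT (edgeR adjusted p of 0.000795). Its VAT call held under all 18 alternatives. The response in VAT minus that in SAT was -0.91 ± 0.18 (edgeR with the mouse as a block, adjusted p of 0.00650), 1 of 8 members called where 2.17% of all tested rows were called. Without the block for the mouse the adjusted p was 0.0816, and it passed in the other 16 of 17 alternatives. In VAT 4 of the 8 adipocyte markers were called lower as well, with a median log2 fold change of -0.64 over all 8. Their part in the Pik3r1 response was not tested.

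A minor row of the same gene, NM_001024955, was called in SAT and not in VAT, and the responses of the rows were not tested against each other. It had 6.92, 3.23, 9.50 and 11.0 CPM in lean SAT and 15.4, 20.1, 16 and 27.7 CPM in obese SAT, without overlap. In VAT its levels were 5.73, 6.74, 12.0 and 10.0 CPM in lean mice against 12.2, 10.8, 12.0 and 6.49 CPM in obese mice, and these groups overlapped. The log2 fold change was 1.38 ± 0.29 in SAT (edgeR adjusted p of 0.00327) and 0.18 ± 0.30 in VAT (edgeR adjusted p of 0.779). Its responses were not shown to differ between tissues (VAT minus SAT -1.23 ± 0.37, edgeR adjusted p of 0.0789), and 3 of 16 alternatives called a difference, with adjusted p between 0.0103 and 0.276 over all of them.

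As a share of all Pik3r1 counts, row NM_001024955 took between 1.94% and 7.14% in lean SAT and between 7.96% and 14.4% in obese SAT. In VAT the share was between 3.07% and 5.34% in lean mice and between 7.92% and 13% in obese mice. The share was thus higher in every obese library in both tissues, in SAT with a higher level of this row and in VAT with a lower level of the leading row. This share was examined after the row values were seen and is given with no test. Summed over its rows, Pik3r1 had a log2 fold change of 0.04 ± 0.17 in SAT and -0.93 ± 0.17 in VAT (edgeR adjusted p of 0.913 and 0.00102). The other Pik3r1 rows, XM_006517569 and XM_006517570, were called by diet in neither tissue. For XM_006517570 in VAT, 4 of 17 alternatives called a lower level in obese mice, with log2 fold changes between -1.45 and -0.59 and adjusted p between 0.0211 and 0.509.

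**Figure D3:**
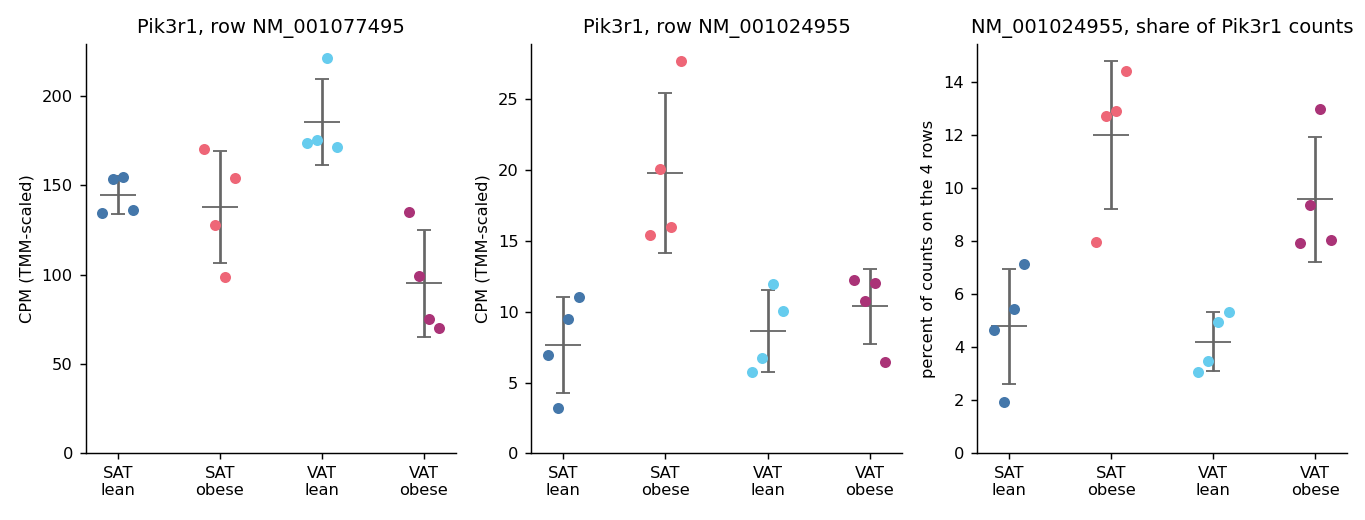
TMM-scaled CPM of 2 Pik3r1 rows and the percent of Pik3r1 counts on row NM_001024955, with 1 point per library, the mean as a horizontal line and the SD as bars. The leading row is lower in all obese VAT libraries, and the share of the minor row is at most 7.14% in all lean libraries and at least 7.92% in all obese libraries.

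Akt2, the AKT kinase that drives insulin-stimulated glucose uptake, had 6 rows that were tested. The row with most counts, NM_007434, had 36.1, 34.6, 26.7 and 29.9 CPM in lean SAT and 41.2, 34.3, 38.6 and 22.7 CPM in obese SAT. In VAT it had 22.9, 24.9, 27.4 and 42.7 CPM in lean mice and 19.1, 23.0, 27.1 and 21.3 CPM in obese mice. Groups overlapped in both tissues, and lean VAT replicate 4 stood above the other VAT libraries. The log2 fold change was 0.10 ± 0.19 in SAT and -0.39 ± 0.20 in VAT (edgeR adjusted p of 0.797 and 0.248). No other Akt2 row was called by diet in either tissue, and the sum of rows was not called either.

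Foxo1, the transcription factor that AKT restrains, had 489, 391, 443 and 354 CPM in lean SAT and 496, 475, 397 and 530 CPM in obese SAT. In VAT it had 359, 362, 372 and 372 CPM in lean mice and 418, 417, 342 and 377 CPM in obese mice. Groups overlapped in both tissues, and the log2 fold changes of 0.18 ± 0.12 in SAT and 0.08 ± 0.12 in VAT did not pass the test (edgeR adjusted p of 0.365 and 0.727). With 66350 counts Foxo1 was the most deeply counted member.

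Tbc1d4, the target of AKT2 on GLUT4 vesicles, had 2.55, 3.65, 3.42 and 5.09 CPM in lean SAT and 4.98, 2.96, 4.47 and 4.46 CPM in obese SAT on its leading row. In VAT it had 2.55, 8.35, 6.20 and 6.94 CPM in lean mice and 6.11, 3.94, 4.39 and 4.86 CPM in obese mice. The lean VAT value of replicate 1 rests on 4 counts, and groups overlapped in both tissues. The log2 fold changes, 0.26 ± 0.27 in SAT and -0.50 ± 0.27 in VAT, did not pass the test (edgeR adjusted p of 0.612 and 0.276).

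Slc2a4 encodes GLUT4, the insulin-regulated glucose transporter of fat and muscle, and had 169 counts on its leading row in all libraries together. The gene has 5 rows, of which 2 had counts, and the leading row held 88.5% of them. These low counts are not read as the level of GLUT4 mRNA. The counts were 9, 13, 10 and 0 in lean SAT and 17, 8, 22 and 11 in obese SAT. In VAT they were 3, 21, 15 and 22 in lean mice and 0, 10, 2 and 6 in obese mice. Scaled to CPM, the lean VAT libraries had 1.91, 1.25, 1.60 and 2.42 CPM and the obese VAT libraries 0, 0.822, 0.191 and 0.512 CPM, without overlap. The 0 in obese VAT replicate 1 is from a shallow library and allows up to 1.15 TMM-scaled CPM. The log2 fold change was -1.88 ± 0.59 in VAT (edgeR adjusted p of 0.0425) and 0.31 ± 0.53 in SAT (edgeR adjusted p of 0.778). The VAT call was made in 9 of 18 alternatives, with adjusted p between 0.0155 and 0.135 and the same direction in all of them. Leaving out lean replicate 1, 3 or 4, or obese replicate 1, 3 or 4, lost the call (edgeR adjusted p between 0.0501 and 0.135). Summed over the rows of the gene the change in VAT was -1.53 ± 0.52 (edgeR adjusted p of 0.0595), and without both shallowest VAT libraries it was -1.72 ± 0.61 (edgeR adjusted p of 0.0733). The difference of the Slc2a4 response between tissues did not pass the test (edgeR adjusted p of 0.246).

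Slc2a1 encodes GLUT1, the transporter that supplies glucose without insulin. Its counts were 22, 9, 14 and 7 in lean SAT and 36, 22, 15 and 35 in obese SAT. For VAT they were 5, 22, 17 and 22 in lean mice against 9, 51, 18 and 40 in obese mice. Scaled to CPM, the groups had 1.47 ± 0.245, 2.20 ± 0.80, 2.18 ± 0.81 and 3.19 ± 1.05 CPM in that order (mean ± SD of 4 mice). Groups overlapped in both tissues, and the log2 fold changes of 0.55 ± 0.36 in SAT and 0.71 ± 0.37 in VAT did not pass the test (edgeR adjusted p of 0.370 and 0.253).

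**Figure D4:**
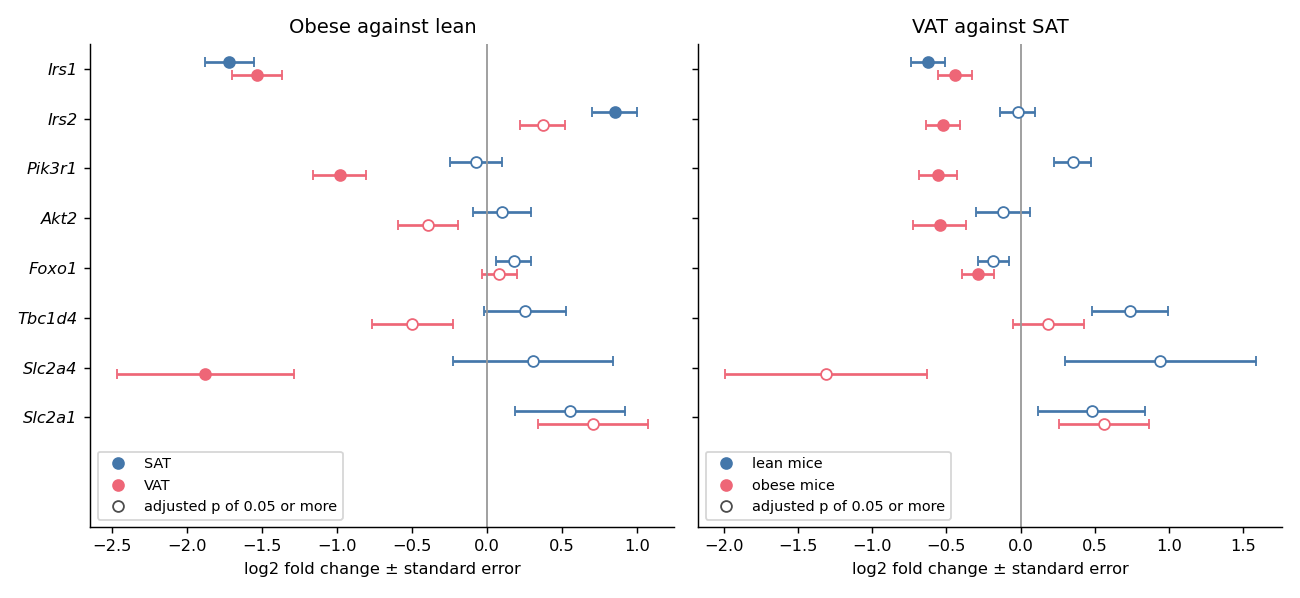
Log2 fold change ± SE of the row with the most counts for 8 genes, obese against lean in SAT and VAT on the left and VAT against SAT in lean and obese mice on the right. Filled points have an edgeR adjusted p below 0.05. Irs1 stands at -1.72 in SAT and -1.53 in VAT, and 5 genes are filled on the lower side in obese mice on the right.

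The comparison of the tissues of the same mice asked how VAT and SAT differed on each diet. In lean mice 1 of 8 members was called, where 14.8% of all tested rows were called. In obese mice 5 of 8 were called, where 29.4% of all tested rows were called, and all 5 were lower in VAT, as 13.5% of all tested rows were. The 5 were Irs1, Irs2, Pik3r1, Akt2 and Foxo1, and each was lower in VAT than in SAT in all 4 obese mice. With each mouse left out in turn, 3 to 5 members were called. SAT and VAT libraries did not overlap for 17.6% of tested rows in lean mice and 29.2% in obese mice, the background for the overlaps given next. The summed adipocyte markers were lower in VAT than in SAT on both diets, and the macrophage markers higher, without overlap in the ranges given above. Among the adipocyte markers, Cfd averaged higher in VAT on both diets (108 against 84.9 CPM in obese mice), and Adipoq and Cidec did so in lean mice. Other cell type markers differed more between the tissues. The summed CPM of 4 mesothelium markers was between 0.154 and 1.40 in SAT libraries, with 2 of the 4 at 0 in every library of each SAT group, and between 236 and 579 in VAT libraries. That of 6 B and T cell markers was between 3.61 and 8.53 in SAT and between 29.9 and 307 in VAT. Their part in the tissue differences was not tested.

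Irs1 was lower in VAT on both diets, with a log2 difference of -0.62 ± 0.11 in lean mice (edgeR adjusted p of 0.000356) and -0.44 ± 0.11 in obese mice (edgeR adjusted p of 0.00521). All 4 lean VAT libraries lay below the 4 lean SAT libraries, whereas the obese libraries overlapped between tissues but were lower in VAT within each mouse. Irs2 did not pass the test in lean mice (-0.02 ± 0.12, edgeR adjusted p of 0.947) and was lower in VAT of obese mice (-0.52 ± 0.12, edgeR adjusted p of 0.00161). Pik3r1 was 0.35 ± 0.13 in lean mice on the log2 scale, with all lean VAT libraries above all lean SAT libraries but an edgeR adjusted p of 0.0629, and -0.56 ± 0.13 in obese mice (edgeR adjusted p of 0.00186). These Pik3r1 values are of its leading row. In obese mice row NM_001024955 was also lower in VAT (-0.95 ± 0.24, edgeR adjusted p of 0.00474, lower in 4 of 4 mice), and that call was lost without obese replicate 4 (-0.56, adjusted p of 0.102). Row XM_006517569 was lower as well (-0.93 ± 0.26, edgeR adjusted p of 0.0101, lower in 3 of 4 mice), a call lost without obese replicate 2 or 4 (adjusted p of 0.0530 and 0.128). The change of this tissue difference with diet is the same quantity as the difference of diet responses tested above.

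The leading row of Akt2 was lower in obese VAT than in obese SAT by a log2 difference of -0.54 ± 0.18 (edgeR adjusted p of 0.0241), a call that was lost without obese replicate 1, 2 or 3 and without both shallowest VAT libraries (adjusted p between 0.0581 and 0.108). Its rows summed were also called (-0.41 ± 0.14, edgeR adjusted p of 0.0277). No other Akt2 row was called there, and these rows went both ways, with log2 differences between -0.49 and 1.09. Foxo1 was lower by -0.29 ± 0.10 (edgeR adjusted p of 0.0431), called in 12 of 17 alternatives. Tbc1d4 was higher in lean VAT by 0.74 ± 0.26 without passing the test (edgeR adjusted p of 0.0580), and it passed when its rows were summed (0.75 ± 0.25, edgeR adjusted p of 0.0423). It was called in 6 of 17 alternatives, with values between 0.54 and 0.97 and adjusted p between 0.0081 and 0.321. Without lean replicate 1, whose VAT library held 4 counts of Tbc1d4, the difference was 0.84 ± 0.26 (edgeR adjusted p of 0.0385). Slc2a4 and Slc2a1 passed on neither diet. Slc2a1 had a higher CPM in VAT than in SAT in 4 of 4 lean mice (0.48 ± 0.36, edgeR adjusted p of 0.437) and in 4 of 4 obese mice (0.56 ± 0.31, edgeR adjusted p of 0.177). Slc2a4 was higher in VAT in 0 of 4 obese mice, without overlap between the tissues (-1.31 ± 0.68, edgeR adjusted p of 0.157). Both genes rest on few counts. How many of all tested rows go one way in every mouse was not counted.

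Beyond the 10 members, a list of 71 other genes of the pathway was examined by role, and 34 of them had a row that was tested. In SAT 1 of the 34 was called (2.94%, beside 11.0% of all tested rows), and in VAT 4 of 34 (11.8%, beside 10.9%). The median log2 fold change of the 34 was 0.10 in SAT and -0.04 in VAT, beside 0.0071 and 0.018 over all rows tested. The single call in SAT was Vamp2, a SNARE protein that fuses GLUT4 vesicles with the plasma membrane. It fell from 217 ± 19.9 to 159 ± 5.15 CPM (mean ± SD of 4 mice), a log2 fold change of -0.45 ± 0.11 (edgeR adjusted p of 0.00928), with all obese libraries below all lean ones. The Vamp2 call was made in 17 of 18 alternatives and was lost with no filter on low counts (adjusted p of 0.114).

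In VAT 3 pathway genes rose and 1 fell. Doc2b, a calcium sensor of the same vesicle fusion step, rose from 5.96 ± 1.51 to 14.0 ± 3.03 CPM (log2 fold change 1.15 ± 0.24, edgeR adjusted p of 0.00302). Socs3, an inhibitor of insulin receptor and cytokine signaling, rose from 20 ± 4.31 to 34.1 ± 1.75 CPM (0.82 ± 0.23, edgeR adjusted p of 0.0253). The Socs3 call was made in 12 of 18 alternatives and was lost when any of 6 mice was left out, with values between 0.69 and 0.83 then. Slc2a10, a transporter of the same family, rose from 13.2 ± 2.73 to 20.2 ± 1.01 CPM (0.56 ± 0.18, edgeR adjusted p of 0.0474). That call was made in only 4 of 18 alternatives, with log2 fold changes between 0.48 and 0.64 and adjusted p between 0.0395 and 0.190. Slc2a13, which carries myo-inositol, fell from 3.13 ± 1.45 to 1.15 ± 0.604 CPM (-1.46 ± 0.35, edgeR adjusted p of 0.00826), and its libraries overlapped. It was called in 16 of 18 alternatives, with values between -1.98 and -1.20, and was lost without lean replicate 2 (adjusted p of 0.0668) or obese replicate 4 (0.0553).

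None of these 5 genes had a diet response that was shown to differ between the tissues. That test called 2 of the 34 genes (5.88%, beside 2.17% of all tested rows), Mtor, the kinase that links insulin to growth, and Gsk3b, the kinase of glycogen synthase. The Mtor difference, VAT minus SAT, was -0.97 ± 0.22 (edgeR adjusted p of 0.0212) where lean and obese mice had 24.8 ± 3.07 and 36.5 ± 7.92 CPM in SAT, and 29.3 ± 5.91 and 22.8 ± 9.58 CPM in VAT. That of Gsk3b was -2.71 ± 0.69 (edgeR adjusted p of 0.0391) at between 0.695 and 2.48 CPM in the group means. The Mtor call was made in 12 of 17 alternatives (adjusted p between 0.00249 and 0.165) and the Gsk3b call in 8 of 16 (between 0.0192 and 0.184), and both were lost without the block for the mouse. Neither gene passed the diet test in SAT or in VAT alone. For the receptors and docking proteins of the list, Irs3, a docking protein of rodent adipocytes, had 90.1 ± 14.3 and 77.5 ± 16.3 CPM in SAT of lean and obese mice, and 104 ± 10.9 and 73.6 ± 19.4 CPM in VAT. Its log2 fold change in VAT was -0.47 ± 0.17 (edgeR adjusted p of 0.0902).

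Between tissues 8 of the 34 pathway genes were called in lean mice (23.5%, beside 14.8% of all tested rows), 3 higher and 5 lower in VAT, and 12 in obese mice (35.3%, beside 29.4%), 5 higher and 7 lower. Socs3 was higher in VAT on both diets (1.09 ± 0.23 in lean and 1.39 ± 0.21 in obese mice on the log2 scale), and so was Slc2a2, the low-affinity transporter GLUT2 (2.23 ± 0.51 and 2.51 ± 0.43). Slc2a13 was lower in VAT on both diets (-1.43 ± 0.28 and -2.50 ± 0.30), and so was Slc2a10 (-1.08 ± 0.16 and -0.84 ± 0.15). All of these differences were called by edgeR, with libraries that did not overlap between the tissues. They were also called in all 17 alternatives, except that of Slc2a2 in lean mice, which was lost without lean replicate 3 (1.93, adjusted p of 0.0562).

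Slc2a2 rests on few counts, between 1 and 12 in SAT libraries and between 2 and 45 in VAT libraries. Lean VAT libraries had 1.27, 1.85, 3.53 and 2.86 CPM, and obese VAT libraries had 6.11, 3.70, 3.25 and 1.88 CPM, against at most 0.988 CPM in any SAT library. GLUT2 is known from intestine, liver and pancreatic islets, and markers of neighbouring organs are given beside it, with no test between the tissues. The summed CPM of 5 intestinal epithelium markers was 2.55, 18.2, 1.07 and 27.6 in lean VAT, between 3.70 and 4.52 in obese VAT and between 1.52 and 5.16 in SAT, so that the tissues overlapped on both diets. Within lean VAT the intestinal sum was highest in replicate 4 and Slc2a2 was highest in replicate 3. Markers of liver and pancreatic islets were not examined. In lean mice all 5 averaged higher in VAT than in SAT, from Krt20 (1.31 against 1.13 CPM) to Epcam (3.56 against 0.124 CPM) and Fabp2 (4.07 CPM against 0). The lean VAT libraries of Fabp2 ranged from 0 to 15.1 CPM, so that its mean rests largely on 1 library. In obese mice Epcam averaged 2.41 CPM in VAT against 0.147 CPM in SAT and Cdh17 0.153 against 0.0516 CPM, whereas Vil1 averaged 1.17 against 1.92 CPM, Krt20 0.421 against 1.33 CPM and Fabp2 0.0477 against 0.0535 CPM. The sum of 5 exocrine pancreas markers was between 41.0 and 91.2 CPM in VAT and between 71.1 and 208 CPM in SAT. Most of it was Cela1, which averaged higher in SAT on both diets, whereas Cpa1, Cel, Ctrb1 and Pnlip averaged higher in VAT on both. In VAT against SAT, Cpa1 averaged 1.47 against 0.188 CPM in lean and 0.669 against 0.350 CPM in obese mice. In the same order, Cel averaged 1.00 against 0 and 0.605 against 0.0172 CPM, and Ctrb1 0.570 against 0 and 0.197 against 0.0192 CPM. Pnlip, pancreatic lipase, was at 0 in all SAT libraries and averaged 1.65 CPM in lean and 0.325 CPM in obese VAT. The part of such cells in the Slc2a2 difference was not tested.

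In the other roles, the genes called with the largest tissue differences were as follows. Among inhibitors, Trib3, a pseudokinase that binds AKT, was lower in VAT (-0.80 ± 0.21 in lean and -0.69 ± 0.20 in obese mice, edgeR adjusted p of 0.00968 and 0.0126), the latter lost without obese replicate 2 (adjusted p of 0.124). Among effectors of AKT, 2 of 7 were called in lean mice (28.6%, beside 14.8% of all tested rows) and 3 of 7 in obese mice (42.9%, beside 29.4%). Foxo4, a relative of Foxo1, was lower in lean VAT (-0.68 ± 0.13, edgeR adjusted p of 0.000493). Eif4ebp1, a repressor of translation that TOR inactivates, was higher in VAT (0.51 ± 0.13 in lean and 0.48 ± 0.13 in obese mice, edgeR adjusted p of 0.00745 and 0.00627), and each call was lost without replicate 3 of that diet (adjusted p of 0.0687 and 0.0997). In obese mice Gsk3b was lower in VAT (-1.94 ± 0.45, edgeR adjusted p of 0.0023), and so was Mtor (-0.75 ± 0.16, edgeR adjusted p of 0.000860), the single call of 4 genes of PI3-kinase, AKT and TOR (25%, beside the same 29.4%).

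In GLUT4 vesicle traffic 1 of 10 genes was called in lean mice (10%, beside 14.8% of all tested rows) and 3 of 10 in obese mice (30%, beside 29.4%). Rala, a small GTPase of vesicle docking, was lower in lean VAT (-0.37 ± 0.11, edgeR adjusted p of 0.0227), in 12 of 17 alternatives. In obese mice Doc2b was higher in VAT (1.05 ± 0.22, edgeR adjusted p of 0.00105), whereas Rab10, the GTPase that TBC1D4 restrains, was lower (-0.47 ± 0.10, edgeR adjusted p of 0.000948). The tissue calls of Foxo4, Gsk3b, Mtor, Doc2b and Rab10 were made in all 17 alternatives.

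The rows of other genes whose pattern over the 16 libraries was most like that of each member were taken by Pearson r of log2 CPM over 9985 rows. Irs1 was most like Dhdh (0.947), Nrbp2 (0.941) and Fbxo45 (0.939). Irs2 was most like Sesn2 (0.915), Ptpn12 (0.874) and Insig1 (0.874), and the leading row of Pik3r1 was most like Gbe1 (0.890), Aco1 (0.832) and Aoc3 (0.826). For the other members the best r was between 0.805 for Tbc1d4 and 0.880 for Foxo1. The 16 points share mice, tissue and depth, and these values are given as a description.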

How the data were processed

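Bulk poly(A) RNA-seq libraries of SAT and VAT from 4 lean and 4 obese mice were analysed, 16 in all. The authors trimmed paired-end reads with Trim Galore 0.6.6, aligned them with HISAT2 2.2.0 to GRCm39 and counted them per RefSeq transcript with HTSeq 0.13.5 (versions per the labels). The library kit keeps strand, and the strand setting of the counting is not given in the sources used here. The deposited table holds raw counts and CPM, and the deposited CPM equal the counts scaled to each library's total, without TMM factors.

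Symbols were found for 106811 of 130343 rows (81.9%) and for 11796 of the 13288 rows tested, and a member's rows among those without a symbol would not be counted. A row entered the tests if 3 or more of the 16 libraries exceeded 1 CPM. Counts were tested in R 4.3.3 using the quasi-likelihood method of edgeR 4.0.16 with TMM factors and legacy=TRUE, and p was adjusted over all rows (Benjamini-Hochberg). Diets were compared in a fit of 4 groups to all libraries, and tissues with the mouse as a block, since replicate numbers name the same animal (correlation of deviations between -0.0090 and 0.173, median 0.0759, in 8 pairs). No 2 libraries of a group were copies, since chi-square divided by its degrees of freedom was at least 7.98 in the 24 pairs. Alternatives were counts summed per gene, RLE size factors, no filter, filterByExpr, legacy=FALSE, DESeq2 1.42.0, limma 3.58.1 voom, the libraries of 1 tissue, a replicate block, and each mouse left out. The fit without the 2 shallowest VAT libraries was added after the data were seen. The test code was also run on simulated counts with 4-fold changes and no mouse effect. That run does not check smaller changes or real differences between mice, and no result here rests on it.

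The text names all 10 members by their leading row and for Pik3r1 the other tested rows (the other Akt2 rows are given as a count or a range), the called genes of the pathway list with the 2 largest changes per tissue (or diet) and role, and the 3 most similar rows. Mtor, Gsk3b, Irs3, the tissue difference of Slc2a10 and the Slc2a2 libraries were singled out after their values were seen. The members, the pathway list and the marker lists were chosen with earlier results of these data known.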

Additional observations from a re-analysis of the deposited data

Results flagged for a closer look

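Among 32 sets of 4 libraries (8 genes in 4 groups), 1 had a library far from the other 3, where chance gives about 1 in 20. Lean VAT replicate 3 was the highest of its group for Pik3r1, with 221 CPM beside 171, 173 and 175 CPM, and its gap to the next library was 0.921 of the group's range. The Pik3r1 call in VAT held with each mouse left out in turn, this one included (highest edgeR adjusted p over all 18 alternatives 0.00696).

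The diet response of Pik3r1 differed between the tissues by -0.91 on the log2 scale (VAT minus SAT, edgeR with the mouse as a block, adjusted p of 0.00650). Without that block the edgeR adjusted p was 0.0816. Pik3r1 was lower in 4 of 4 obese VAT libraries than in any lean VAT library, and the 4 obese SAT libraries lay on both sides of the lean ones. In VAT 4 of 8 adipocyte markers were called lower as well, and the part of these markers in the difference was not tested.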

How the results depend on the processing

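The number of members called by diet kept within 1.5 times its value under all alternatives, with 2 in SAT and 2 to 3 in VAT when each mouse was left out. The replicate block left 2 calls in SAT and 3 in VAT and changed no diet call of a named gene. Without the block for the mouse, the difference of the diet response had 0 members called, against 1, and lean mice had 2 members that differed between tissues, against 1. Lean mice also had 2 with counts summed per gene, with legacy=FALSE, with limma voom and without the 2 shallowest VAT libraries, and 1 to 2 with each mouse left out. In obese mice 3 to 5 members differed between tissues with each mouse left out, with the lowest count without obese replicate 3. The cause was not tested.

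Of 1386 single values under alternatives, 12 changed sign, none of them a called value. The Pik3r1 response in SAT was 0.044 with summed counts, and -0.20 to 0.062 with each mouse left out. With each mouse left out, the Akt2 response in SAT was -0.0058 to 0.26, the tissue difference in lean mice was -0.039 to 0.030 for Irs2, -0.32 to 0.018 for Akt2 and -0.042 to 0.31 for Pik3r1 row XM_006517569, and the difference of responses was -0.067 to 0.17 for Slc2a1 and -0.40 to 0.057 for Pik3r1 row XM_006517570. Without the 2 shallowest VAT libraries the Akt2 tissue difference in lean mice was 0.0092. DESeq2 gave no adjusted p for the differences of response of Slc2a4 and Slc2a1. Slc2a4 and Slc2a1 rest on few counts, and Insr and Grb14 could not be tested.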
